A study of Mus musculus with 6 samples.

Results

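The genes described here serve the unfolded protein response and the folding machinery of the endoplasmic reticulum (ER). They are 35 named genes: chaperones and folding enzymes that ATF6 and XBP1 are known to induce, the PERK-ATF4 branch, ER-associated degradation, and a remainder of stress sensors, XBP1 and translocon components. They were found by array target name, and 31 of the 35 names were on the array. A probe was kept when its detection fraction was at least 0.95 on 3 or more of the 6 arrays, and the brightest kept probe stood for the gene, which left 28 genes among 12824 target names tested. All cells were primary mouse embryonic fibroblasts on a C57BL/6 background, taken at embryonic day 12.5, grown in medium with 10% fetal serum, and harvested for RNA after 1 passage. The 6 cultures comprised 3 from Asciz-/- embryos (knockout) and 3 from Asciz+/+ embryos (wild type); each was hybridised to 1 bead array. Asciz is an older name of Atmin, a zinc-finger transcription factor; the labels do not say how the allele was made. The comparison asked which transcripts differ in its absence.

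Unfolded proteins in the ER are sensed by 3 membrane proteins. ATF6 is cut in the Golgi to release a transcription factor, IRE1 (gene Ern1) splices the Xbp1 messenger, and PERK (gene Eif2ak3) phosphorylates a translation initiation factor, which lowers general translation and favours translation of Atf4. ATF6 and XBP1 induce ER chaperones and degradation factors, whereas ATF4 also responds to amino acid shortage and induces Ddit3 (CHOP), Trib3 and Chac1. Fibroblasts secrete large amounts of collagen and use this machinery without added stress. Splicing of Xbp1, phosphorylation and protein levels are not read by these arrays.

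The promoters of some of these genes hold the letters of known elements of the pathway, and examples are shown here so that the sequences stand beside the values of the genes. RefSeq promoter windows (GRCm38.p6, 250 bases before to 50 after the start of the gene) were present for 31 of the 35 genes. They were searched on both strands for the ER stress response element (CCAAT and CCACG with 9 bases between), its shorter relative ERSE-II (ATTGG and CCACG with 1 base between), the element TGACGTGG (UPRE) and the ATF4 element TGATGNAA (CARE). The ER stress response element matched in 9 of the 31 genes, in 7 of 13 chaperone genes and in 2 of 8 degradation genes, against 0.119% of all 32851 windows. The chaperones were listed as genes that ATF6 and XBP1 are known to induce, so these shares describe the list and test nothing. Members are counted as genes and the background as windows. The CARE letters matched in 3 of the 31, Chac1, Trib3 and Herpud1, against 3.97% of all windows; the Trib3 match began 14 bases after the start of the gene. The other PERK-ATF4 genes, Atf4, Ddit3 and Ppp1r15a, had no match to any of the 4 elements, nor did the chaperone genes Pdia3, Pdia4, P4hb, Dnajb9 and Sdf2l1. ERSE-II matched in Dnajb11 and Herpud1, against 0.0365% of windows, and UPRE in 0 of the 31, against 0.676%. A match describes letters in the window and not a bound site. In the stretches below, read along the strand of the gene, capitals mark the match. Those of Hspa5 (chr2:34772005-34772063, plus strand), Calr (chr8:84847055-84847113, minus), Creld2 (chr15:88819500-88819558, plus) and Pdia6 (chr12:17266471-17266529, plus) hold the ER stress response element, reversed in Calr and Creld2. That of Herpud1 (chr8:94386297-94386407, plus) holds CARE reversed and then ERSE-II, and that of Chac1 (chr2:119351029-119351076, plus) holds CARE reversed.
Hspa5: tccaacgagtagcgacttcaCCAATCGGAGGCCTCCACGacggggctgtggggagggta
Calr: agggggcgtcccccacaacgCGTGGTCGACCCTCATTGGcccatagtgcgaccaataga
Creld2: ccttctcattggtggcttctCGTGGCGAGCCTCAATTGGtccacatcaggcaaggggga
Pdia6: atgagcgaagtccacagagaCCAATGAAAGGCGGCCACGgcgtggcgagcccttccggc
Herpud1: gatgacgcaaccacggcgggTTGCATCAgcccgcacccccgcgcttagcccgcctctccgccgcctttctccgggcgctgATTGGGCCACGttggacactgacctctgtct
Chac1: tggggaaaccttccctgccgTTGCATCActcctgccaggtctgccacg

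Facts of the whole series bear on what follows. The targeted gene Atmin stood at 8.70, 8.87 and 8.77 on the wild-type arrays and at 6.93, 6.95 and 6.47 on the knockout arrays (normalized log2 intensity), without overlap, as the labels have it. Its log2 fold change was -1.99 (adjusted p = 0.00730 by limma), and that of Dynll1, the dynein light chain gene that it is known to activate, was -1.89 (adjusted p = 0.00157 by limma). The arrays had median intensities of 88.7 to 97.9 and 17580 to 18794 detected probes each. Precision rested on 3 arrays per genotype. Knockout replicate 3 correlated least with the other arrays (mean 0.980 across target names, against 0.985 to 0.989 for the others). The Y-linked gene Ddx3y was at 5.37 in wild-type replicate 1 and between 9.80 and 10.48 in the other cultures. Of 20 fibroblast markers 19 were detected, whereas 0 of the 9 plasma-cell and exocrine markers on the array were. All 11 detected macrophage markers were lower in the knockout cultures (median -1.04; mean level 6.15 to 6.82 in wild type and 5.39 to 5.80 in knockout cultures), and 18 of 20 skeletal muscle markers were higher (median 0.64; 6.98 to 7.54 against 7.58 to 7.95), with none past the threshold. Of 10 chondrocyte and osteoblast markers 8 were lower (median -0.39), all 5 neural markers were higher (median 0.45), as were 5 of 6 epithelial (0.31) and 4 of 5 endothelial markers (0.29), again with none past the threshold. A further 8 of 19 macrophage and 7 of 27 muscle markers on the array were below detection. In such mixed cultures fewer cells of a type and less RNA per cell cannot be told apart, and the part of these cells in the values below was not tested.

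No gene of the pathway passed the test between genotypes, and for most of them the interval of the probe signal excluded a large change. Of the 28 members, 0 passed an adjusted p of 0.05 in limma, beside 0.0312% of all target names higher in knockout cultures, 0.0234% lower and 0.0546% in either direction. An unadjusted p under 0.05 was reached by 0 members, beside 4% higher, 3.75% lower and 7.75% in either direction. The groups failed to overlap for 1 member, Dnajb9, which was lower in knockout cultures. All target names showed such a gap at 6.87% higher, 7.50% lower and 14.4% in either direction. The members' median log2 fold change was 0.01, with 16 above and 12 below 0, and the median of all target names was -0.01. Their median absolute change was 0.08, against 0.13 over all. Fold changes ran from -0.22 (Chac1) to 0.48 (Ddit3), and every one of the 28 confidence intervals held 0. For 23 of the 28 the 95% interval excluded a change of 1.5-fold or more in either direction, and for 26 a change of 2-fold. These intervals bound the signal of the brightest kept probe of each gene and not that of its other probes. For dim probes, such as those of Eif2ak3, Ern1 and Hspa5, they need not bound the transcript. The Eif2ak3 difference was 0.16 with the main settings and 0.06 without background correction.

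**Figure D1:**
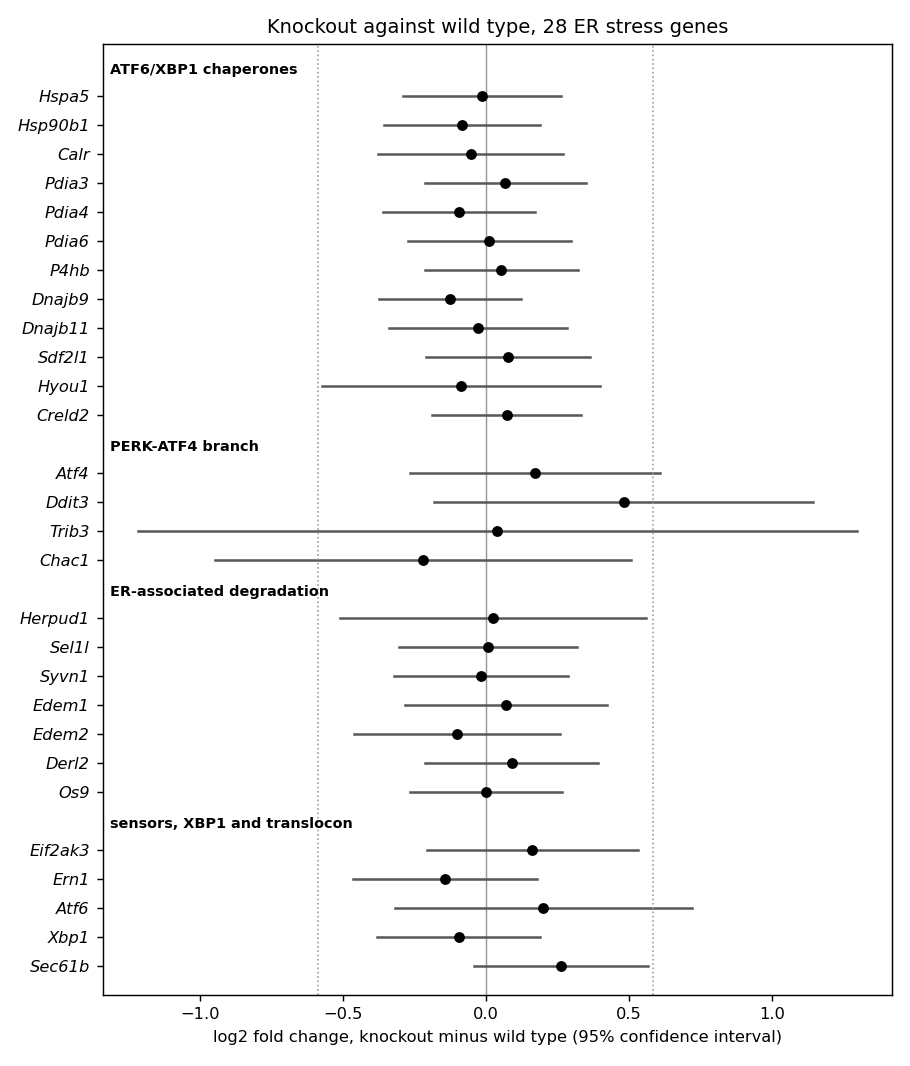
Log2 fold change of each of the 28 genes, knockout minus wild type (points), with its 95% confidence interval from limma (lines, n = 3 arrays per genotype); dotted lines mark 1.5-fold. All 28 intervals hold 0, and those of Trib3, Ddit3 and Chac1 are the widest.

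The chaperones and folding enzymes had overlapping groups, Dnajb9 excepted, and the interval of each brightest probe lay within 1.5-fold. Of 12 detected members 5 were above and 7 below 0, with a median of -0.02, and adjusted p ran from 0.802 to 0.987. Hspa5 encodes BiP, the ER member of the HSP70 family that also holds the sensors inactive. Its probe read 6.02, 5.98 and 6.11 on the wild-type arrays and 5.87, 6.08 and 6.11 on the knockout arrays. The knockout cultures thus held both the lowest and the highest of the 6 values. The difference was -0.01 (SE 0.12, 95% interval -0.29 to 0.26, adjusted p = 0.984 by limma). This only Hspa5 probe on the array was dim, at 123.3 to 155.8 intensity units against array medians of 88.7 to 97.9. It ranked 9336 in brightness among the 12824 target names. The interval bounds this dim signal and not surely the transcript. Hsp90b1 (GRP94, the ER form of HSP90) read 12.78, 12.70 and 12.80 in wild type and 12.67, 12.81 and 12.56 in knockout cultures. The groups overlapped, and the difference was -0.08 (SE 0.12). The lectin chaperone Calr spread most in wild type, at 11.44, 11.28 and 11.71, and its 3 knockout values (11.42, 11.47 and 11.38) fell inside that range.

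The disulfide isomerases had small differences. Pdia4 read 11.29, 11.31 and 11.45 in wild type and 11.20, 11.21 and 11.35 in knockout cultures, lower by a log2 difference of -0.09 (SE 0.11, limma adjusted p = 0.859). Knockout replicate 3 lay above 2 of the wild-type cultures. P4hb, which is both an isomerase and a subunit of the collagen prolyl hydroxylase, read 13.27, 13.45 and 13.29 against 13.42, 13.45 and 13.31. The values interleaved, and the difference was 0.05 (SE 0.11). Pdia3, which works with calreticulin on glycoproteins, differed by 0.07 and Pdia6, which acts on BiP clients, by 0.01.

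Among the partners of BiP, Dnajb9 (ERdj4, a J-domain protein) was the one member whose groups did not overlap. It read 8.92, 9.05 and 8.97 in wild type and 8.84, 8.84 and 8.88 in knockout cultures. All 3 knockout values were lower, by little, and the difference of -0.13 did not pass (SE 0.11, 95% interval -0.37 to 0.12, adjusted p = 0.802 by limma). Its second probe read 6.29, 6.22 and 6.25 against 6.14, 5.90 and 5.82, also without overlap, a difference of -0.30 (SE 0.13, unadjusted p = 0.0451, adjusted p = 0.655 over all probes by limma). Both probes thus leaned the same way, and neither passed. Dnajb11 (ERdj3), a secreted J-domain partner, differed by -0.03 and Sdf2l1, which binds it, by 0.08.

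Creld2, a secreted ER stress factor, read 10.44, 10.37 and 10.48 in wild type and 10.59, 10.50 and 10.41 in knockout cultures. The difference was 0.07 (SE 0.11), and its second probe gave -0.07, so the probes differed in sign. Hyou1, the large ER chaperone that exchanges nucleotide on BiP, had the widest spread of the class. Knockout replicate 1 was at 6.55 and the other 5 cultures between 7.06 and 7.33, and the genotypes differed by -0.09 (SE 0.21, 95% interval -0.57 to 0.40).

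**Figure D2:**
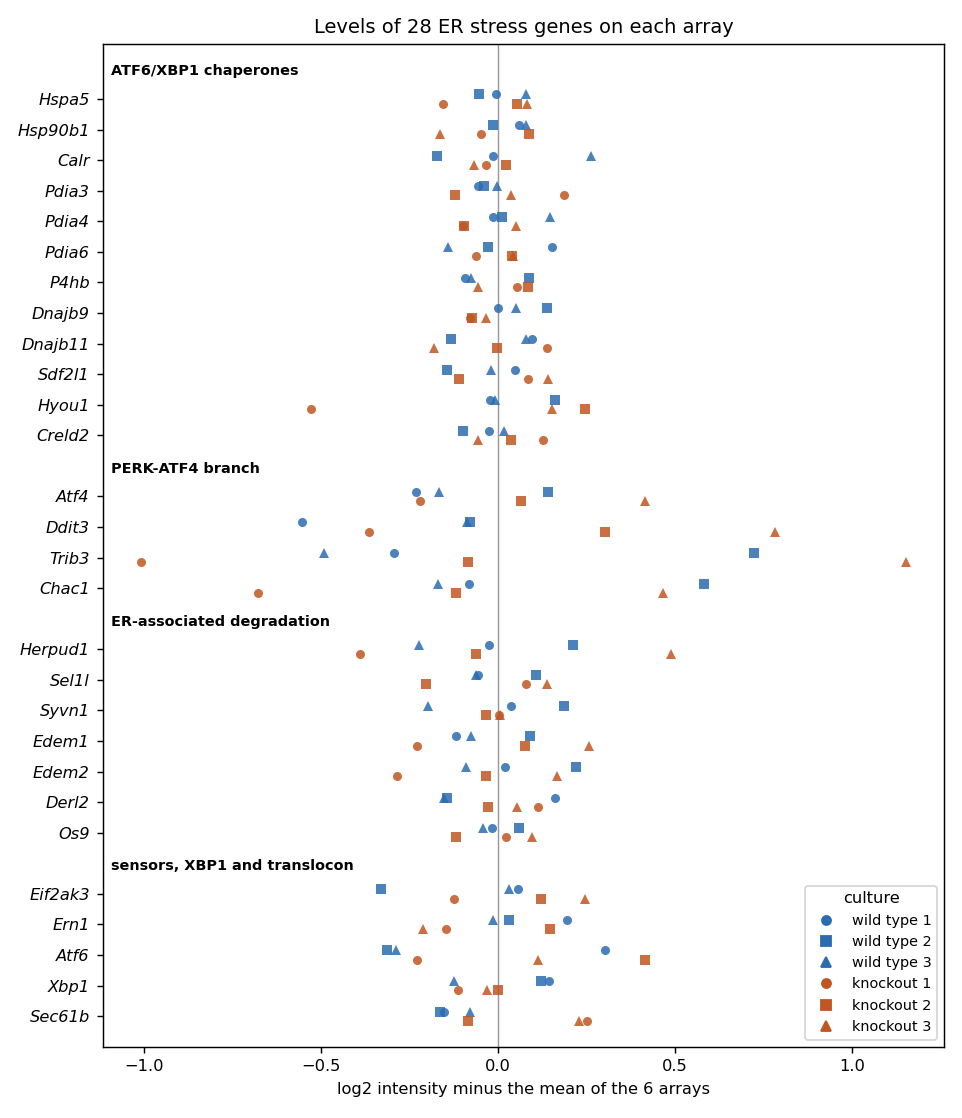
Normalized log2 intensity of each of the 28 genes on each of the 6 arrays, minus the mean of the 6 (x axis); colour gives the genotype and symbol the replicate number. Chaperone values lie close together except for Hyou1, and the genotypes are mixed except for Dnajb9. Trib3, Chac1 and Ddit3 spread widely, with knockout replicate 3 and wild-type replicate 2 high for Trib3 and Chac1.

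In the PERK-ATF4 branch, cultures of one genotype differed widely for Trib3, Chac1 and Ddit3. For Trib3 they differed by far more than the genotype means did. Trib3, a pseudokinase that ATF4 and CHOP induce, read 9.48, 10.50 and 9.28 in wild type and 8.76, 9.69 and 10.93 in knockout cultures. The knockout group held both the lowest and the highest culture, a range of 4.48-fold. The genotype means were 9.75 ± 0.65 and 9.79 ± 1.09 (SD, n = 3 each), differing by 0.04 (SE 0.54, 95% interval -1.21 to 1.29, adjusted p = 0.991 by limma). This interval does not exclude a change of 2-fold in either direction. The other 2 Trib3 probes ranked the arrays alike, with knockout replicate 3 highest at 7.51 and 7.64, wild-type replicate 2 next at 6.97 and 7.19, and knockout replicate 1 lowest at 5.60 and 5.41. In unnormalized brightness the first, second and last places held, with knockout replicate 3 at 1529.5 intensity units, wild-type replicate 2 at 1258.6 and knockout replicate 1 at 565.7. Knockout replicate 2, at 774.5, then lay below wild-type replicates 1 (1013.5) and 3 (785.3).

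Chac1, a glutathione-degrading enzyme induced by ATF4, followed a similar order. It read 10.51, 11.17 and 10.42 in wild type and 9.91, 10.47 and 11.06 in knockout cultures. Wild-type replicate 2 and knockout replicate 3 were high, knockout replicate 1 was low, and the groups overlapped, and the genotypes differed by -0.22 (SE 0.31, limma adjusted p = 0.888). Ddit3 encodes CHOP, a transcription factor of prolonged ER stress. It read 9.78, 10.25 and 10.24 in wild type and 9.97, 10.63 and 11.11 in knockout cultures. Here 2 knockout cultures lay above all wild-type cultures and the third below 2 of them. The difference of 0.48 was the largest among the members and did not pass (SE 0.29, 95% interval -0.18 to 1.14, adjusted p = 0.714 by limma). With 1 array left out it ran from 0.21 (without knockout replicate 3) to 0.79 (without knockout replicate 1), and passed in neither case. Without knockout replicate 3 and wild-type replicate 1 together it was 0.05. The second Ddit3 probe gave 0.39 (SE 0.31).

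Atf4, the transcription factor itself, read 11.69, 12.06 and 11.76 in wild type and 11.70, 11.99 and 12.34 in knockout cultures. Knockout replicate 3 and wild-type replicate 2 were again highest, and the difference was 0.17 (SE 0.19, adjusted p = 0.845 by limma). Its other probe did not share the order: knockout replicate 1 stood second there, at 11.28, below knockout replicate 3 at 11.41. Herpud1, a membrane protein of the degradation complex whose promoter stretch above holds both CARE and ERSE-II, read 11.43, 11.66 and 11.23 in wild type and 11.06, 11.39 and 11.94 in knockout cultures. It was highest in knockout replicate 3, next in wild-type replicate 2 and lowest in knockout replicate 1, and the genotypes differed by 0.02 (SE 0.23). Its second probe had the same 2 cultures on top but was lowest in wild-type replicate 3, at 10.63, with knockout replicate 1 at 10.70, and gave 0.17 (SE 0.22). In unnormalized brightness the top places of Chac1, Atf4 and Herpud1 changed. Chac1 was highest in wild-type replicate 2 (1982.4 units, knockout replicate 3 at 1671.2). Atf4 (4266.7 against 4230.6) and Herpud1 (3551 against 3118.1) were higher in wild-type replicate 1 than in knockout replicate 3. Ddit3 stayed highest in knockout replicate 3, at 1749.6.

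**Figure D3:**
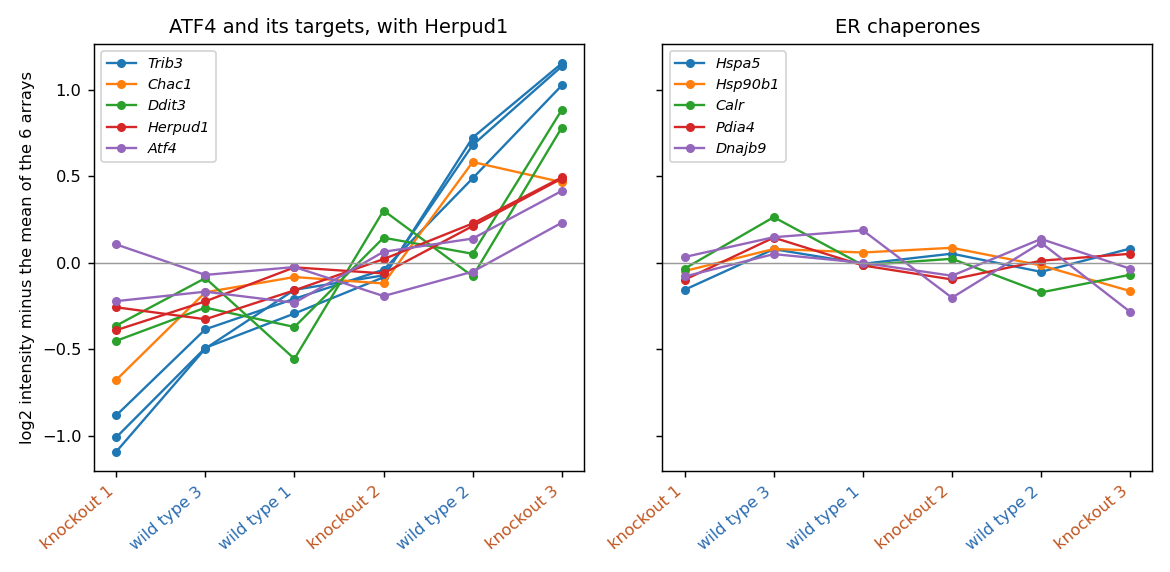
Log2 intensity minus the mean of the 6 arrays (y axis), 1 line for every kept probe. On the left are the detected PERK-ATF4 genes with Herpud1, which is of the degradation class, and on the right 5 chaperones. Cultures on the x axis stand in the order of Trib3, blue labels wild type and orange labels knockout. The lines climb from knockout replicate 1 to knockout replicate 3 for Trib3 over 4.48-fold. The chaperone lines span less and do not follow the full order. Hspa5 shares its ends, lowest in knockout replicate 1 and highest in knockout replicate 3, but over 1.18-fold. Before normalization its dim probe read 136.9 intensity units in knockout replicate 1 and 124.8 in knockout replicate 3.

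The spread between cultures of one genotype, given here as a description, was wide for Trib3, Chac1 and Ddit3 and narrow among most chaperones. The pooled within-genotype SD was 0.90 for Trib3, 0.50 for Chac1, 0.45 for Ddit3 and 0.27 for Atf4 on the log2 scale. For Herpud1, of the degradation class, it was 0.35. The median over all target names was 0.18, and 99.4% of them lay below Trib3, 95.6% below Chac1 and 93.9% below Ddit3. For the 12 chaperones the median was 0.11, from 0.05 for Dnajb9 to 0.31 for Hyou1. The second Atf4 probe spread less than the first, with SDs of 0.02 in wild type and 0.22 in knockout cultures. Ppp1r15a, under its older name, had SDs of 0.08 and 0.23 and was highest in knockout replicate 1, at 9.32.

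**Figure D4:**
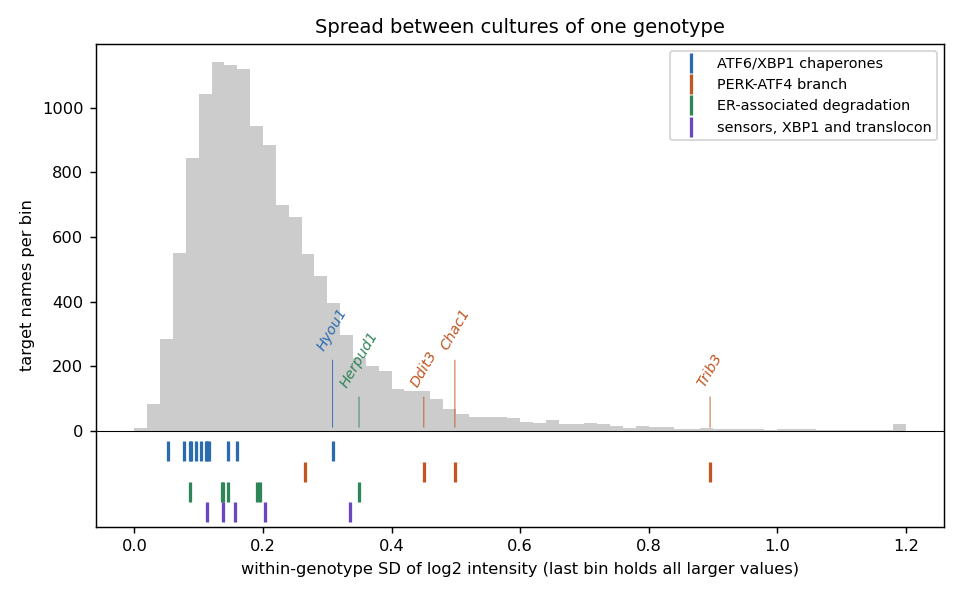
Histogram of the pooled within-genotype SD of log2 intensity over all 12824 target names (grey bars, x axis in log2 units), with the 28 members as ticks below, coloured by class. Trib3, Chac1 and Ddit3 lie in the right tail, above 93.9% or more of target names, and the chaperones other than Hyou1 lie at 0.16 or below.

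The ordering was shared by some genes in and outside the ATF4 group and not by most. Knockout replicate 3 was highest and knockout replicate 1 lowest for 4 of the 28 members, Trib3, Herpud1, Edem1 and Hspa5, so for 1 of the 4 detected PERK-ATF4 genes. The same held for 9 of 28 amino acid and tRNA synthetase genes and for 6 of 27 other stress factors of the branch, against 6.39% of all target names, a pattern chosen after the values were seen. It held for 5 of 33 other ER folding enzymes, 5 of 38 ER to Golgi genes, 1 of 36 translocon genes, 1 of 23 cytosolic heat shock genes, 0 of 29 other degradation genes and 0 of 15 regulators. Slc7a3, an arginine transporter, read 9.27, 9.42 and 8.61 in wild type and 8.27, 9.16 and 10.19 in knockout cultures. Atf5, a relative of Atf4, read 11.60, 12.09 and 11.21 against 11.19, 11.81 and 12.44. The same 2 arrays held the extremes for 9 of 19 fibroblast markers, among them the collagen gene Col1a2, at 9.61, 10.48 and 9.53 in wild type and 9.50, 9.89 and 11.07 in knockout cultures. Mean array intensity was lowest in knockout replicate 3 (320 units), then wild-type replicate 2 (337) and knockout replicate 2 (355), and was 412 to 452 on the other arrays. The part of collagen-rich cells, array brightness or culture state in this ordering was not tested.

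ER-associated degradation, which returns misfolded proteins to the cytosol for the proteasome, gave 0 members past the threshold. For the brightest probe of each, the interval lay within 1.5-fold. Of 7 detected members 5 were above and 2 below 0, with a median of 0.01. Syvn1 (HRD1, the ubiquitin ligase of the complex) read 11.54, 11.69 and 11.30 in wild type and 11.50, 11.46 and 11.50 in knockout cultures. All knockout values lay inside the wild-type range, and the difference was -0.02 (SE 0.13, 95% interval -0.32 to 0.29). Sel1l, its scaffold partner, differed by 0.01 and Os9, a lectin that recognises trimmed glycans, by 0.00 (95% interval -0.26 to 0.27). Sel1l has 2 further kept probes, at -0.19 and -0.23, the dimmer of them detected on 3 arrays.

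Edem2, which starts mannose trimming on misfolded glycoproteins, read 10.06, 10.26 and 9.95 in wild type and 9.76, 10.01 and 10.21 in knockout cultures, a difference of -0.10 (SE 0.15). Its other 3 probes gave between 0.10 and 0.21, so its probes differed in sign. Edem1 read 6.44, 6.65 and 6.49 against 6.33, 6.64 and 6.82, with a difference of 0.07 (SE 0.15). For both genes the knockout group held the lowest culture, replicate 1, and knockout replicate 3 was high. Derl2, a channel component, read 8.84, 8.53 and 8.52 against 8.79, 8.65 and 8.73, and the difference was 0.09 (SE 0.13, adjusted p = 0.890 by limma).

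Of the sensors, Eif2ak3 and Atf6 lay near background. Eif2ak3 (PERK) was detected on 2 arrays of each genotype and read 4.91, 4.52 and 4.88 in wild type and 4.73, 4.98 and 5.10 in knockout cultures, a difference of 0.16 (SE 0.16). Atf6 just met the detection rule, on 1 wild-type and 2 knockout arrays, at 5.08, 4.47 and 4.49 against 4.55, 5.20 and 4.89, a difference of 0.20 (SE 0.22). Its second probe was detected on 1 array and left out. Ern1 (IRE1) was detected on all 6 arrays and read 5.91, 5.75 and 5.71 against 5.57, 5.87 and 5.51, a difference of -0.14 (SE 0.14). The groups overlapped for each of the 3 sensors.

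Xbp1, the target of IRE1, read 12.06, 12.03 and 11.79 in wild type and 11.80, 11.91 and 11.88 in knockout cultures. The knockout cultures lay within the wild-type range, and the difference was -0.10 (SE 0.12, 95% interval -0.38 to 0.19, adjusted p = 0.871 by limma). Sec61b, a small subunit of the protein-conducting channel, had the smallest p of all members. It read 10.84, 10.83 and 10.91 in wild type and 11.24, 10.91 and 11.22 in knockout cultures, and only knockout replicate 2 reached into the wild-type range. This difference of 0.26 did not pass (SE 0.13, 95% interval -0.04 to 0.57, unadjusted p = 0.0802, adjusted p = 0.666 by limma). The second probe read 9.51, 9.51 and 9.44 against 9.77, 9.72 and 9.93, without overlap, a difference of 0.32 (SE 0.12, unadjusted p = 0.0250, adjusted p = 0.629 over all probes by limma).

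The remaining 7 names gave no value under the rule. Canx, Derl1 and Derl3 have probes on the array that were detected on 0 of the 6 arrays, with detection fractions of at most 0.760, 0.838 and 0.752, which bounds these probes and not the genes. Dnajc3, Manf, Ppp1r15a and Serp1 are not target names of the array. Under older names that the reference gene table gives, Dnajc3 (a J-domain inhibitor of PERK) differed by -0.06, Ppp1r15a (GADD34, which reverses the PERK signal) by 0.15 and Serp1 (a translocon-associated protein) by -0.05, with adjusted p from 0.838 to 0.946 over all probes by limma. The older-name probe of Manf was detected on 0 arrays.

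The 8 lists of neighbouring genes held 0 genes past the threshold in either direction, beside 0.0546% of all target names. Groups without overlap are counted below for the translocon genes and the regulators. Each of the other 6 lists, of 23 to 38 genes, had at most 3 such genes, beside 14.4% of all target names. Among 33 other ER folding enzymes the median was -0.05, and the smallest p belonged to P4ha2 (-0.24), a collagen prolyl hydroxylase subunit, and Txndc11 (-0.24). Amino acid and tRNA synthetase genes of the ATF4 programme (28, median -0.05) were led by Mars (-0.17) and Slc3a2 (-0.30), and the other stress factors of the branch (27, median 0.02) by Atf3 (0.29) and Eif2b2 (0.23). Other degradation genes (29, median 0.02) were led by Man1a, an alpha-mannosidase, at 0.50 (SE 0.14, unadjusted p = 0.00879, adjusted p = 0.512 by limma), whose groups did not overlap, and by H47 (0.22).

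Genes of the translocon, signal recognition and N-glycosylation (36, median -0.01) had groups without overlap for 4 genes higher and 2 lower in knockout cultures, beside 6.87% and 7.50% of all target names. Its smallest p belonged to Tloc1 (Sec62) and to Srp19 (0.32). Tloc1 stayed below the detection limit in all wild-type cultures, so it met the detection rule only through the knockout arrays. Its means were 4.66 in wild type and 4.94 in knockout cultures, near background. The difference did not pass (adjusted p = 0.647 by limma), and its fold bound of 1.10 is not a confidence limit. ER to Golgi transport genes (38, median -0.01) were led by Sec16a (-0.21) and Golgb1 (0.23). Regulators of ATF6 and XBP1 (15, median -0.10) had 1 such gene higher and 3 lower, and were led by Bax (0.26), a pore protein of apoptosis that also binds IRE1, and Mbtps1 (-0.24), the protease that cuts ATF6. Cytosolic heat shock genes, a separate stress programme (23, median 0.06), were led by Hspa1b (0.40), a near copy of Hspa1a, and Hspe1 (0.25).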

How the data were processed

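RNA of 6 cultures was measured on 1-colour MouseWG-6 bead arrays. The authors deposited mean bead intensity per probe, exported with GenomeStudio version 1.6.0 without normalization, per the file headers, and a detection fraction, in which 1 means detected, per the file headers. Their second deposited table holds a score for which the submitters' processing notes name lumi, of a scale that no source states; it served as an alternative. Per-array columns left unused numbered 30 of 48. Background correction from the detection values, quantile normalization and log2 transformation used neqc (limma 3.58.1, R 4.3.3, offset 16). Of 45281 probes, 18221 had a detection fraction of at least 0.95 on 3 or more arrays. The brightest kept probe stood for each of 12824 target names.

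Knockout minus wild type was tested two-sided with lmFit and eBayes of limma over all target names, with Benjamini-Hochberg adjustment at 0.05; single probes were adjusted over all kept probes. Fold changes of dim probes depend on the background correction. Members and lists were chosen with earlier results of these data known, so no list was tested as a set. Values on all arrays were given, by rule, for the 4 members of each class with the smallest p, the brightest of each class, Hspa5, Ddit3, Atf4 and Xbp1, and each neighbouring list was named by its 2 genes of smallest p; Calr, Hyou1, Herpud1, Slc7a3, Atf5 and Col1a2 were added after their values were seen. A probe not detected in a group has a fold bound: the other group's mean against, per array, the higher of its own value and the lowest detected value. On simulated data for this comparison (12824 names, 20 simulations), 19.0% of 1.5-fold, 64.3% of 2-fold and 92.7% of 4-fold changes were recovered. Of the calls 5.11% were false, and 95.2% of intervals on changed names held the true value. The simulated noise was normal and independent between names, with variances shuffled among them, so these rates need not hold for the real arrays. Replicates are separate embryos' cultures, per the series design. The cultures were tested as unpaired. Between cultures of the same replicate number the correlation of deviations was 0.23, -0.19 and -0.20. These values cannot show whether such cultures were paired in origin.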

Additional observations from a re-analysis of the deposited data

How the results depend on the processing

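Under each of 18 alternative settings, and at an adjusted p of 0.10, 0 members passed, and the lowest adjusted p of any member was 0.381 (Ddit3 with array weights, limma). At an unadjusted p under 0.05, 0 or 1 member passed in each setting. Of the 28 members, 10 kept the sign of their difference in every setting run for them, and none of the others had passed. Scaling arrays to a common median moved the median of all target names to -0.17, and with it the members (-0.17), the chaperones (-0.18) and the degradation genes (-0.17). The chaperone median was 0.0198 without wild-type replicate 1 and knockout replicate 3 together, and -0.0385 to 0.0136 with each array left out. The median of the sensors, XBP1 and translocon was 0.16 with all arrays, 0.0316 in the submitters' normalized values, -0.10 for genes detected on all 6 arrays, -0.00972 without both of those arrays, and 0.00457 to 0.20 with each array left out. Leaving out 1 array gave -0.05 to 0.06 for the degradation genes, -0.25 to 0.44 for the PERK-ATF4 branch and -0.03 to 0.04 for all members. Trib3 moved from 0.04 to -0.52 without knockout replicate 3 and to 0.56 without knockout replicate 1, with no call. Over all target names 7 passed with the main settings, 3 without background correction, 3 in the submitters' values, 4 without a filter on dim probes, 12 with array weights, and 2 to 4 with 1 array left out. The replicate block gave 6 target names and 0 members.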
